A study of Mus musculus with 39 samples.

Results

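The Hox genes of the mouse were compared between hind paw skin, the end of a limb, and the lumbar dorsal root ganglia (DRG) that hold the cell bodies of the sensory neurons supplying it. The members reported were gene symbols in the count files made of Hoxa, Hoxb, Hoxc or Hoxd and a paralog number, 38 of 22609 symbols. HoxA on chromosome 6 gave 11 members, HoxB on chromosome 11 gave 10, HoxC on chromosome 15 gave 8 and HoxD on chromosome 2 gave 9. By paralog number, 8 were anterior (1 to 3), 15 central (4 to 8) and 15 posterior (9 to 13).

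RNA was sequenced from C57 mice of 8 to 12 weeks, with 39 libraries in 13 groups of 3. Hind paw skin came from punch biopsies and gave 8 groups: paclitaxel females at days 2, 6, 16 and 26 after the last injection, paclitaxel males at days 2, 6 and 15, and vehicle females taken 1 day after vehicle. DRG of levels L3 to L5 gave 5 groups: paclitaxel females at days 2 and 6, paclitaxel males at days 2 and 6, and vehicle females taken 1 day after vehicle. Paclitaxel (PTX), a microtubule-stabilising cancer drug that can cause painful neuropathy, was given as 2 intraperitoneal injections of 3 mg/kg with a day between them, and tissue was taken from both sides. Whether the 3 libraries of a group stand for different animals is not said in the labels, and the p-values describe only how these libraries spread, which may be technical. Sex-matched vehicle samples of males were not analysed here. Titles of the vehicle samples carry WT and those of the paclitaxel males LC, neither of which the paclitaxel female titles carry, and the labels do not explain LC.

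Hox genes encode homeodomain transcription factors that tell cells where they lie along the head-to-tail axis and, in limbs, along the shoulder-to-finger axis. In each cluster the genes lie in the order in which they are used along the body: low paralog numbers act in the hindbrain and neck, middle ones at thoracic levels, and high ones at lumbar and tail levels and in the distal limb. Adult fibroblasts and other cells keep much of the code of the place where they formed, and in sensory and motor neurons Hox genes take part in setting subtype and connections.

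The part of a Hox protein that reads DNA is related in all members but not identical, and the following stretches show how far some counted genes differ there. Each is 48 bases of the homeobox in the last exon, in the coding direction, from the GRCm38 genome with GENCODE M21 exons, with capitals marking bases that differ from Hoxa13 at the same place. The genes shown are 3 that were far higher in paw and 1 that was far higher in DRG.
Hoxa13, chr6:52258934-52258981, minus strand: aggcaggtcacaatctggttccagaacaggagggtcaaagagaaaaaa
Hoxd13, chr2:74670056-74670103, plus strand: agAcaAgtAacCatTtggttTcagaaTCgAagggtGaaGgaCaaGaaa
Hoxc12, chr15:102938434-102938481, plus strand: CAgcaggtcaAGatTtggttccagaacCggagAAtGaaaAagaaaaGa
Hoxb8, chr11:96284300-96284347, plus strand: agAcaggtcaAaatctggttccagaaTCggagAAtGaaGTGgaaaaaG
Of the 48 bases, Hoxd13 differed from Hoxa13 at 13, and Hoxb8 and Hoxc12 at 11 each. Over whole transcripts, and leaving aside genes whose exons overlap those of the member, at most 1.3% of the 50-base stretches of a member (the read length) also lay in another gene, the highest share being in Hoxc9. Overlapping neighbours are not covered by that share: Hoxd3 and Hoxd4 have 388 exon bases in common on the same strand, Hoxc5 and Hoxc10 have 166, and Hoxa9 and Mir196b have 85.

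The most opposed levels within a single cluster were those of Hoxd13 and Hoxd1, the outermost HoxD genes, and their promoters are shown for that reason. They are the 250 bases before the RefSeq start in GRCm38.p6, with capitals marking matches to TATAAA on either strand (overlapping matches are joined).
Hoxd13 upstream, chr2:74667975-74668224, plus strand: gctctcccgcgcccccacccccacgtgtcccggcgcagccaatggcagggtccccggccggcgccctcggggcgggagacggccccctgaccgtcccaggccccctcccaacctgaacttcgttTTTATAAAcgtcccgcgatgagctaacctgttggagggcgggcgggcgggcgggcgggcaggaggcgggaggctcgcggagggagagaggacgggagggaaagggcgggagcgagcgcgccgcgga
Hoxd1 upstream, chr2:74762730-74762979, plus strand: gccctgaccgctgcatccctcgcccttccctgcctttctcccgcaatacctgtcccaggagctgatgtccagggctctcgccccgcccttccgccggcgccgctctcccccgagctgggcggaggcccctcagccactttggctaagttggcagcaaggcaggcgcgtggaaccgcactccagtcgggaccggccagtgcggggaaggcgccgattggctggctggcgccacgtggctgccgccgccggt
The Hoxd13 stretch held 31 CG dinucleotides and a TATAAA match, while the Hoxd1 stretch held 24 CG dinucleotides and no match. Of 32851 mouse promoters in the same table, 12.4% held TATAAA and 32.7% held GGGCGG, the core of a GC box, on either strand. Of 24 promoters for 22 of the 38 members, 4 held TATAAA and 10 held GGGCGG, and the median number of CG dinucleotides was 12.5, against 6 over all promoters. A letter match is a description of the sequence only.

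Depth was similar in both tissues: 16781618 to 24598926 reads were counted to genes in the paw libraries and 19049166 to 26136854 in the DRG libraries. Levels are given as CPM, the usual depth-scaled count, in which a gene's reads are divided by all reads counted to genes in that library. The labelled tissues carried their own markers: the sensory neuron list (19 genes) had a mean level of 0.73 to 1.42 in paw and 8.74 to 9.04 in DRG on the log2(CPM + 0.5) scale, and the keratinocyte list (16 genes) 10.98 to 11.98 in paw and 1.15 to 3.25 in DRG. Skeletal muscle markers (20 genes) ranged widely in both tissues, 1.88 to 10.64 in paw and 2.14 to 8.85 in DRG, so the biopsies and ganglia held differing amounts of muscle RNA. The libraries formed 2 sets by how many reads touched more than 1 gene and were left uncounted: 0.21 to 0.30% in all 18 paclitaxel female libraries, and 0.54 to 0.75% in the 21 vehicle female and paclitaxel male libraries. Comparisons of paclitaxel females with either other group therefore also compare the sets, and the causes of those differences cannot be told apart. In DRG, replicate 2 of the paclitaxel females at day 2 stood apart, with 873 reads of Gfap (an astrocyte and glial filament), 126 of Mog (oligodendrocyte myelin) and 60 of Olig2 (oligodendrocyte lineage), against 22 to 141, 0 to 9 and 0 to 2 in the other 14 DRG libraries. Results that rest on it are given with and without it.

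Hind paw skin and lumbar ganglia differed in most Hox genes, and the direction went with position in HoxC and in part in HoxA, but not in HoxB. In HoxD the difference tended to rise with position, though only Hoxd13 was higher in paw. In vehicle females 9 of the 35 members tested were higher in paw, 22 were lower and 4 did not pass the test (edgeR's quasi-likelihood test, Benjamini-Hochberg adjusted p under 0.05). The tissues are so different that 81.1% of all 16547 genes tested passed, 40% higher and 41% lower, so the count of members called is near that of any genes. The median log2 difference of the members was -1.16, against 0 over all genes. The members higher in paw were Hoxa7, Hoxa9, Hoxa11, Hoxa13, Hoxc9, Hoxc10, Hoxc11, Hoxc12 and Hoxd13, so 8 of the 9 were posterior. None of the 7 anterior members tested was higher in paw, and 6 were lower. Of the 15 central members 1 was higher and 12 were lower, and of the 13 posterior members 8 were higher and 4 were lower. In whole tissue, fewer cells of a type and less RNA per cell cannot be told apart.

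**Figure D1:**
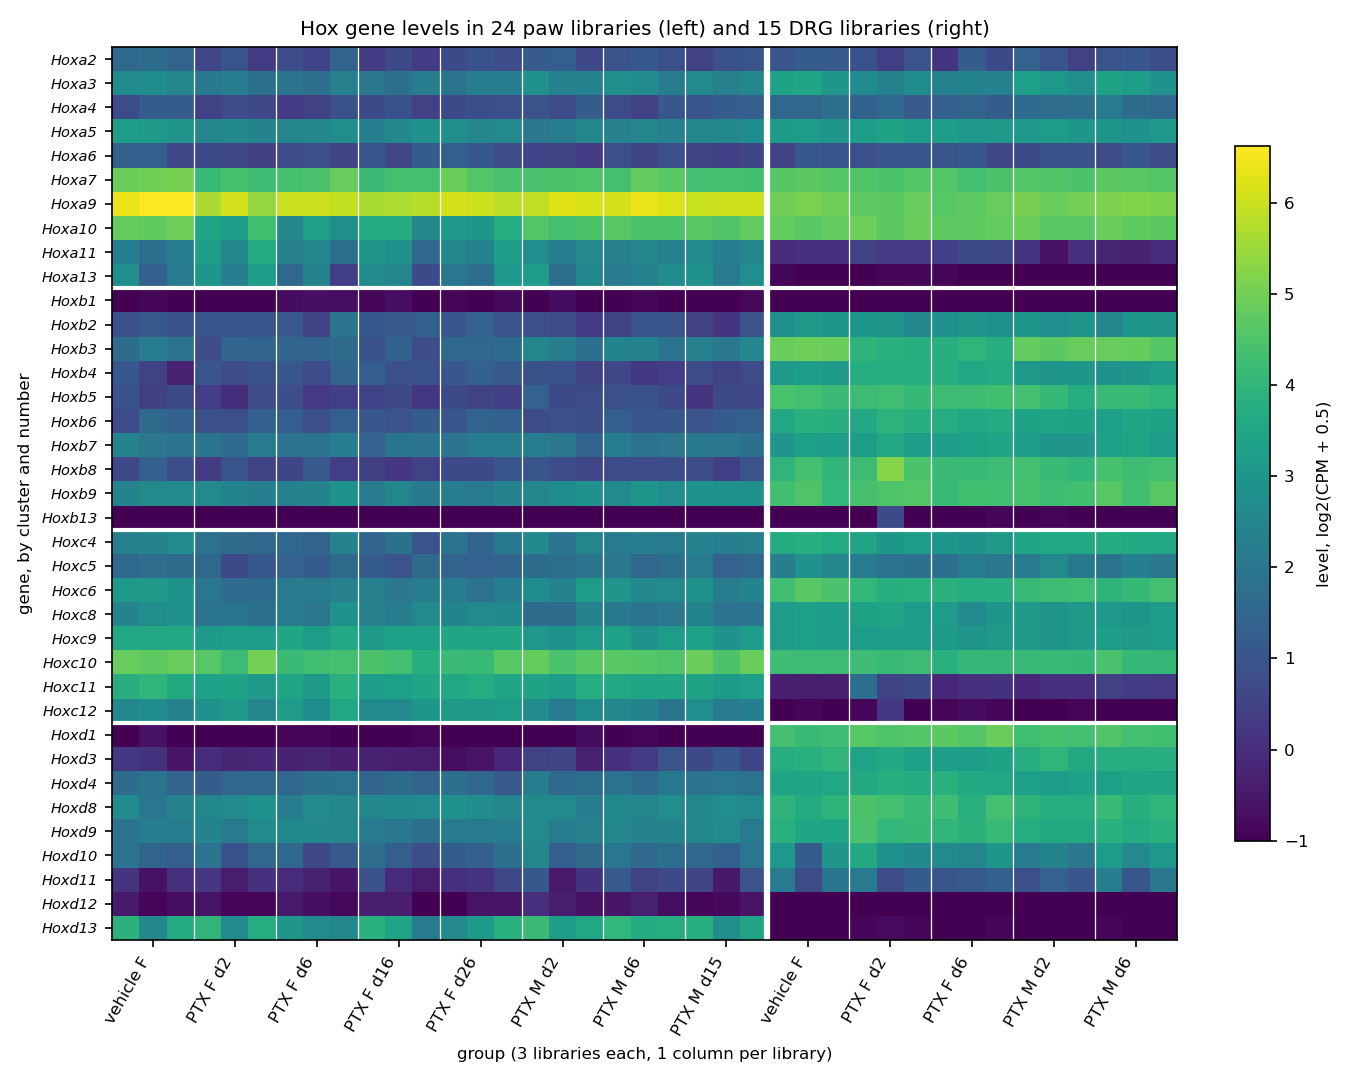
Level of Hox members in each of the 39 libraries, as log2(CPM + 0.5), with paw libraries left of DRG libraries and members in order of cluster and paralog number. Hoxa13, Hoxc11, Hoxc12 and Hoxd13 stand out in paw, where their medians were 4.70, 10.6, 5.91 and 10.96 CPM, and the HoxB genes and Hoxd1 in DRG.

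Hoxd13, which with Hoxa13 patterns the hand and foot plate, was read in every paw library and almost never in DRG. It had 14.3, 5.27 and 12.1 CPM in the vehicle paws, and 0 reads in each of the 3 vehicle DRG libraries. Over all groups the paw libraries ran from 3.78 to 17.8 CPM (median 10.96) and no DRG library had more than 2 reads. Taking 3 reads per library as the floor that a count of 0 allows, Hoxd13 was at least 85.7-fold higher in paw in vehicle females and at least 99.0-fold higher in paclitaxel males at day 2. Hoxa13 behaved alike, with 6.43, 2.01 and 4.03 CPM in the vehicle paws, against 0.0397, 0 and 0 CPM (1 read in all) in the vehicle DRG. At day 6, paclitaxel males had 3.97, 4.56 and 5.93 CPM of Hoxa13 in paw and 0 reads in every DRG library, at least a 38.7-fold difference. The paw and DRG libraries did not overlap for either gene.

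HoxC contributed a second distal pair. Hoxc12, a posterior gene known for its activity in hair follicles, had 5.22, 5.99 and 4.65 CPM in the vehicle paws and 0, 0.043 and 0 CPM in the vehicle DRG. In paclitaxel males at day 6, where no DRG library held a read of it, it was at least 36.0-fold higher in paw. Hoxc11, expressed in the developing hindlimb and in lumbosacral neurons, had 13.03, 15.6 and 11.8 CPM in the vehicle paws and 0.278, 0.258 and 0.283 CPM in the vehicle DRG. Unlike the paralog 12 and 13 genes it was detected in all 15 DRG libraries, with 6 to 65 reads, and its log2 difference was 5.61 ± 0.31 (SE, adjusted p = 1.49e-16). Hoxa11, which patterns the lower leg and forearm, had 4.42, 2.92 and 4.28 CPM in the vehicle paws and 0.477, 0.558 and 0.525 CPM in the vehicle DRG, a log2 difference of 2.89 ± 0.37 (adjusted p = 2.78e-08). For all 3 genes every paw library lay above every DRG library.

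Hoxa9 and Hoxc10 were abundant in both tissues. Hoxa9, a lumbar-level gene, was the most abundant Hox gene of the paw, with 82.8, 97.2 and 97.7 CPM in the vehicle paws and 30.7, 33.3 and 29.9 CPM in the vehicle DRG, and the groups did not overlap (log2 difference 1.58 ± 0.13, adjusted p = 5.09e-12). Hoxc10, a lumbar-level gene of limb-innervating motor neurons, differed less, with 28.3, 25.9 and 28.0 CPM in the vehicle paws and 18.4, 18.3 and 18.0 CPM in the vehicle DRG (0.60 ± 0.15, adjusted p = 0.000622). Hoxa7 and Hoxc9, central and posterior genes used at thoracic levels, were slightly higher in vehicle paw, by 0.35 ± 0.12 and 0.33 ± 0.12 on the log2 scale (adjusted p = 0.00907 and 0.0145). Their libraries overlapped between tissues over all groups, and of the matched pairs Hoxa7 was called only in vehicle females. Of 6 fits without 1 library, Hoxa7 passed in all 6 and Hoxc9 in 4 (edgeR, adjusted p up to 0.0413 and 0.0608). The other posterior genes called went the other way: Hoxb9, Hoxd9, Hoxd10 and Hoxd11 were lower in paw, by log2 differences of -1.82 ± 0.16, -1.58 ± 0.15, -1.20 ± 0.42 and -2.73 ± 0.65. The call of Hoxd10 was lost when only the compared groups were fitted (edgeR, adjusted p = 0.0661) and in 2 of 6 fits without 1 library (adjusted p up to 0.0788). Hoxd9 had 3.00 to 5.81 CPM (median 4.35) in paw and 10.6 to 21.2 CPM (median 13.7) in DRG.

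**Figure D2:**
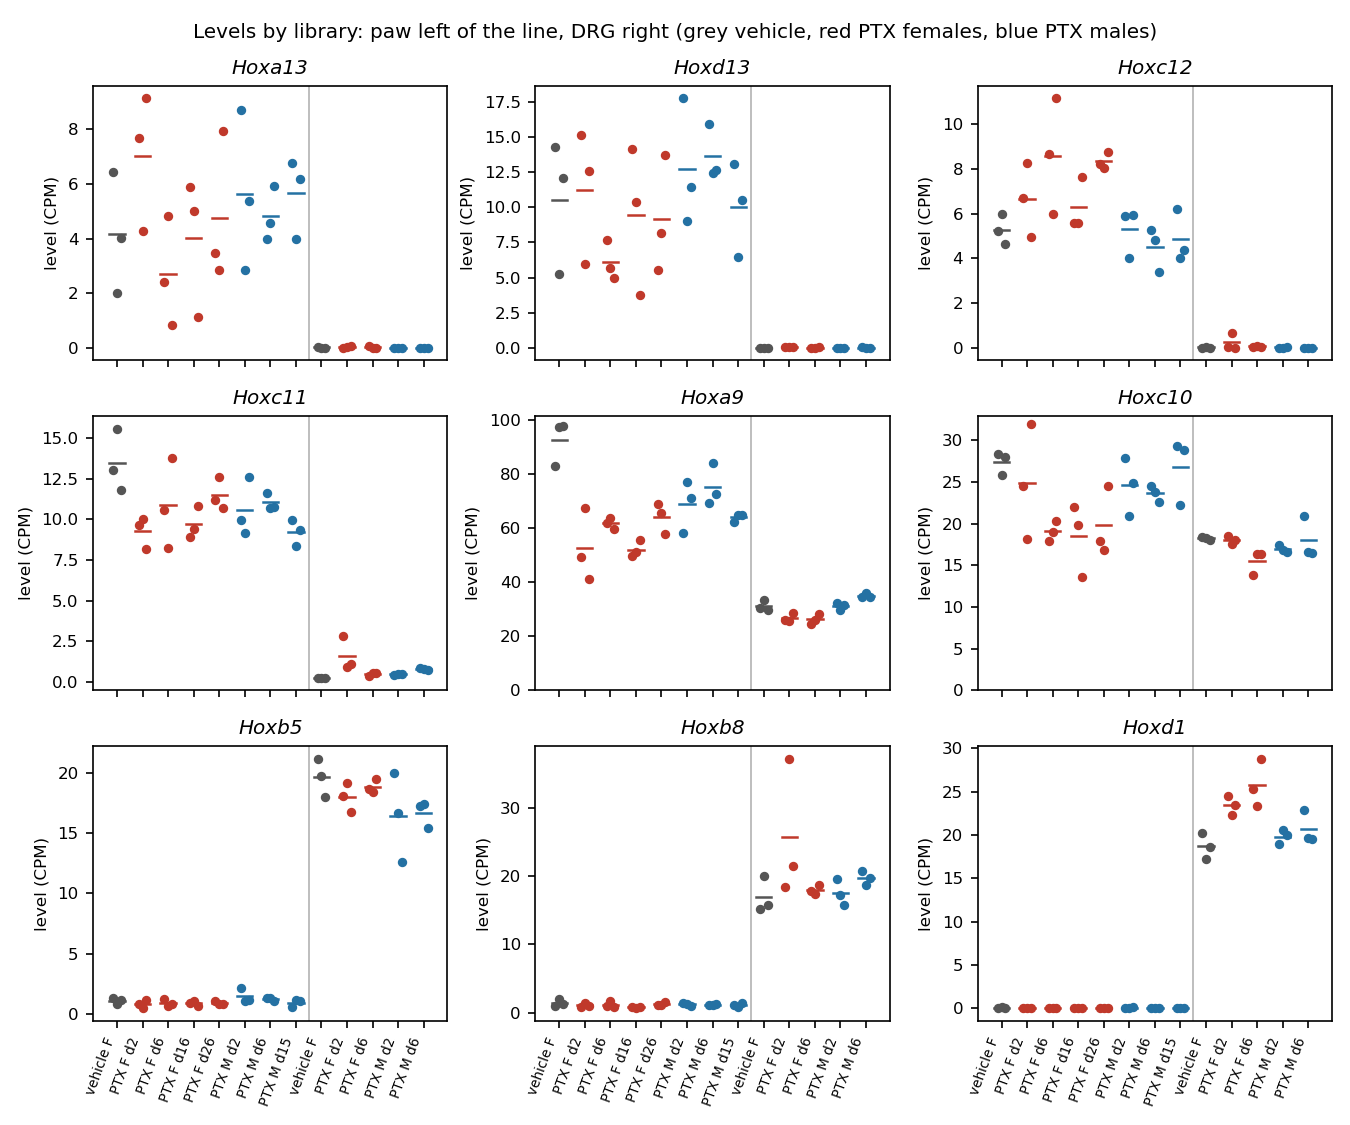
CPM of 9 members in every library, with the 8 paw groups left of the vertical line and the 5 DRG groups right of it, bars marking group means (n = 3 libraries each). Hoxa13, Hoxd13, Hoxc12, Hoxc11 and Hoxa9 lie higher in every paw library, Hoxb5, Hoxb8 and Hoxd1 in every DRG library, and Hoxc10 overlaps.

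All 8 HoxB genes that could be tested were lower in paw than in DRG, and all 8 had every DRG library above every paw library. Of all genes tested in vehicle females, 41% were lower in paw. Of 16641 genes with enough reads, 29.2% were higher in every DRG library than in any paw library. Hoxb5, used at cervical and thoracic levels and in neural crest derivatives, had 1.38, 0.862 and 1.14 CPM in the vehicle paws and 21.1, 19.7 and 18.0 CPM in the vehicle DRG (-4.11 ± 0.26, adjusted p = 5.01e-15). Hoxb8, whose regulatory sequence drives Cre in caudal sensory neurons in widely used mouse lines, had 1.03, 2.06 and 1.24 CPM in the vehicle paws and 15.2, 19.9 and 15.7 CPM in the vehicle DRG (-3.52 ± 0.27, adjusted p = 3.81e-13). Hoxb3 and Hoxb4 differed by -3.10 ± 0.20 and -3.15 ± 0.28, Hoxb6 and Hoxb2 by -2.70 ± 0.20 and -2.34 ± 0.29, and Hoxb9 and Hoxb7 the least, by -1.82 ± 0.16 and -1.16 ± 0.20. Hoxb3 ran from 1.24 to 5.30 CPM in paw (median 2.72) and from 12.9 to 30.2 CPM in DRG (median 25.3). Hoxb4 ran from 0.310 to 2.24 CPM in paw (median 1.33) and from 6.72 to 13.1 CPM in DRG (median 9.02). Hoxb6 ran from 1.17 to 2.63 CPM in paw (median 1.58) and from 9.31 to 14.6 CPM in DRG (median 11.6). The HoxB genes kept 1 direction whatever their paralog number. Hoxb2 ran from 0.603 to 3.30 CPM in paw (median 1.46) and from 4.99 to 8.29 CPM in DRG (median 7.19). Hoxb7 ran from 2.15 to 4.76 CPM in paw (median 3.45) and from 7.31 to 11.5 CPM in DRG (median 9.12). Hoxb9 ran from 3.72 to 7.51 CPM in paw (median 5.37) and from 16.1 to 24.3 CPM in DRG (median 19.5). In the ganglia the medians of these 8 genes lay between 7.19 and 25.3 CPM, and in skin between 1.09 and 5.37 CPM.

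Hoxd1, at the anterior end of HoxD and known in mouse for its part in nociceptor development, was the reverse of Hoxd13. It had 0, 0.144 and 0 CPM in the vehicle paws and 20.3, 17.2 and 18.6 CPM in the vehicle DRG. Over all groups 18 of the 24 paw libraries held no read of it and none held more than 3, while the DRG libraries held 401 to 630. In paclitaxel females at day 2, where no paw library had a read, Hoxd1 was at least 169-fold higher in DRG. Hoxd3, which acts in neck vertebrae, was also low in skin, with 0.689, 0.575 and 0.155 CPM in the vehicle paws and 12.9, 13.7 and 15.4 CPM in the vehicle DRG (-4.86 ± 0.35, adjusted p = 1.16e-13). It shares 388 exon bases on the same strand with Hoxd4, so the split of reads between these neighbours is uncertain. Hoxd4 and Hoxd8, central genes of the same cluster, were lower in paw by -1.97 ± 0.19 and -1.56 ± 0.18. Hoxd4 ran from 1.67 to 4.20 CPM in paw (median 2.73) and from 8.53 to 13.8 CPM in DRG (median 10.8). Hoxd8 ran from 3.496 to 6.55 CPM in paw (median 5.44) and from 12.4 to 21.9 CPM in DRG (median 15.1). Neither overlapped between tissues. Hoxd10 ran from 1.06 to 5.22 CPM in paw (median 2.40) and from 1.85 to 12.0 CPM in DRG (median 5.65). Hoxd11 ran from 0.144 to 1.78 CPM in paw (median 0.572) and from 1.16 to 4.36 CPM in DRG (median 1.84). These posterior HoxD genes, used in the limb and lumbar cord, did overlap.

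The anterior and central genes of HoxA and HoxC differed less. Hoxc4, Hoxc5, Hoxc6 and Hoxc8, used from neck to thorax and, for Hoxc6 and Hoxc8, in brachial motor neurons, were lower in paw by log2 differences of -1.31 ± 0.21, -1.004 ± 0.24, -1.48 ± 0.17 and -0.59 ± 0.21. Hoxc4 ran from 1.45 to 5.94 CPM in paw (median 3.78) and from 7.002 to 13.6 CPM in DRG (median 11.1). Hoxc6 ran from 2.64 to 8.49 CPM in paw (median 4.51) and from 12.9 to 25.0 CPM in DRG (median 16.8). Both were higher in every DRG library than in any paw library. Hoxc5 ran from 1.12 to 3.95 CPM in paw (median 2.41) and from 2.95 to 6.66 CPM in DRG (median 3.82). Hoxc8 ran from 2.70 to 6.83 CPM in paw (median 4.10) and from 5.69 to 10.4 CPM in DRG (median 8.54). Hoxc9 ran from 6.83 to 11.6 CPM in paw (median 9.39) and from 7.19 to 9.62 CPM in DRG (median 8.54). These 3 overlapped between tissues. Hoxc5 shares 166 exon bases with Hoxc10 on the same strand and is uncertain to that extent. Hoxa3 ran from 2.98 to 6.76 CPM in paw (median 4.37) and from 4.55 to 10.9 CPM in DRG (median 6.97). Hoxa4 ran from 0.766 to 1.93 CPM in paw (median 1.24) and from 1.78 to 3.79 CPM in DRG (median 2.49). Hoxa3 and Hoxa4, neck-level genes, were lower in paw by -0.71 ± 0.19 and -0.67 ± 0.22 (adjusted p = 0.00132 and 0.00794). Of 6 fits without 1 library, Hoxa4 and Hoxc8 each passed in 5 (edgeR, adjusted p up to 0.0618 and 0.0688). The 4 members that did not pass in vehicle females were all in HoxA: Hoxa2 at 0.51 ± 0.33, Hoxa5 at 0.01 ± 0.14, Hoxa6 at 0.39 ± 0.25 and Hoxa10 at 0.09 ± 0.23. Hoxa2 ran from 0.761 to 2.73 CPM in paw (median 1.34) and from 0.639 to 2.10 CPM in DRG (median 1.43). Hoxa6 ran from 0.732 to 2.07 CPM in paw (median 1.10) and from 0.874 to 1.65 CPM in DRG (median 1.36). Hoxa2, a hindbrain gene, and Hoxa6, a thoracic one, were thus scarce in both tissues. Hoxa5 ran from 3.54 to 8.95 CPM in paw (median 5.23) and from 6.79 to 9.89 CPM in DRG (median 8.04). Hoxa7 ran from 17.4 to 32.8 CPM in paw (median 20.9) and from 19.9 to 25.6 CPM in DRG (median 23.6). Hoxa10 ran from 5.28 to 30.04 CPM in paw (median 19.6) and from 24.5 to 29.9 CPM in DRG (median 26.6). Hoxa7 and Hoxa10 were among the more abundant members in both tissues.

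The 3 members left untested were near the limit of detection. Hoxb13, a gene of the tail end, had no read in any of the 24 paw libraries and at most 27 reads in a DRG library, the one that stood apart. Hoxb1, a hindbrain gene, had at most 3 reads in paw and none in the 15 DRG libraries. Hoxd12, a digit gene, had at most 11 reads in paw and none in DRG. A count of 0 means that the gene was not detectable at these depths, not that it is absent.

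**Figure D3:**
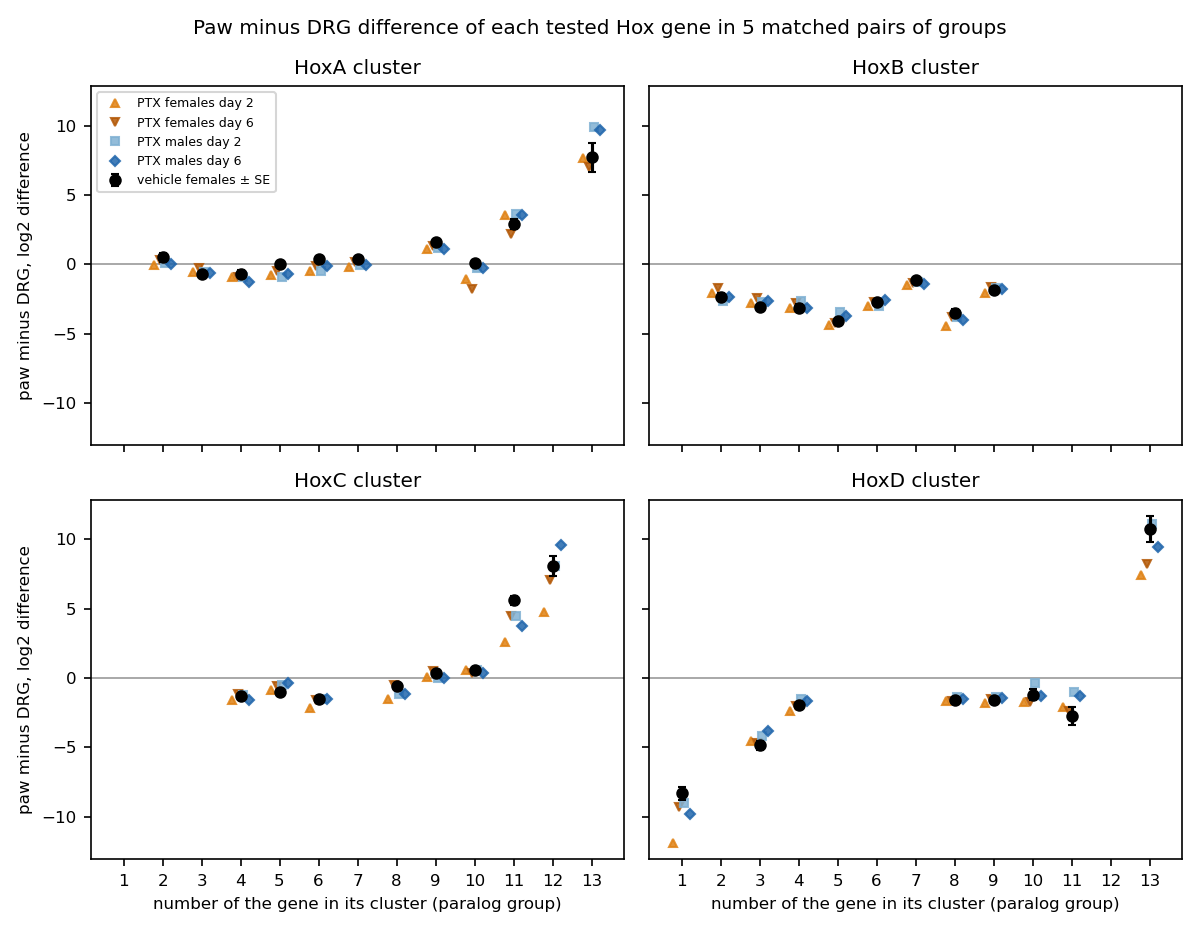
Fitted log2 difference, paw minus DRG, of tested members against their paralog number, in the 5 matched pairs of groups. HoxC climbs with number, HoxB stays below 0, and the fitted values of genes at or near 0 reads in a tissue (Hoxa13, Hoxc12, Hoxd1, Hoxd13) depend on the prior count used in fitting.

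The rise with paralog number differed in form between clusters. In vehicle females Spearman's rho between paralog number and the log2 difference was 0.93 over the 8 HoxC members, 0.74 over the 11 HoxA members, 0.74 over the 8 HoxD members and 0.19 over the 8 HoxB members. In the paclitaxel pairs rho ran from 0.88 to 0.93 in HoxC, 0.58 to 0.75 in HoxA, 0.69 to 0.98 in HoxD and 0.05 to 0.12 in HoxB. These are descriptions across genes, which are not replicates and share both sets of libraries. In HoxC every member from 4 to 8 was lower in paw and every member from 9 to 12 was higher. The calls of the 2 members next to that switch were weak. Of 6 fits without 1 library, Hoxc8 passed in 5 and Hoxc9 in 4 (edgeR, adjusted p up to 0.0688 and 0.0608). Of the matched pairs, Hoxc9 was called only in vehicle females and in paclitaxel females at day 6. In HoxD the only member higher in paw was Hoxd13. The median log2 difference was 0.35 in HoxA, -2.90 in HoxB, -0.13 in HoxC and -1.77 in HoxD.

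The makeup of the Hox reads differed in the same way. HoxA held a median of 53.6% of the Hox reads of a paw library (48.7 to 60.4%) and 27.9% of those of a DRG library (24.2 to 29.8%). HoxB held 7.91% in paw (5.97 to 9.94%) and 31.3% in DRG (29.0 to 36.1%). HoxC held 27.0% in paw and 17.7% in DRG, and HoxD 10.99% in paw and 22.3% in DRG. Summed over all members, the median was 235.6 CPM in paw and 372.0 CPM in DRG, and the paw range of 185 to 309 CPM did not overlap the DRG range of 335 to 395 CPM.

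Levels of different genes were compared per kilobase of transcript. In paw the highest medians were those of Hoxa9 (20.1 CPM per kilobase), Hoxc10 (12.2), Hoxa7 (10.4), Hoxa10 (7.63), Hoxc12 (5.74), Hoxc11 (5.26) and Hoxd13 (4.41). In DRG they were those of Hoxa7 (11.8 CPM per kilobase), Hoxd1 (11.02), Hoxc6 (10.6), Hoxa10 (10.4), Hoxb5 (9.55), Hoxa9 (9.27) and Hoxc10 (9.12). Neighbours in either order overlapped in range over libraries. The ganglia thus had a flat top of many genes from paralog 1 to 10, and the paw a top of paralogs 7 to 13.

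No member was called in opposite directions between the matched pairs of groups. Paclitaxel females had 7 members higher and 24 lower in paw at day 2 (79.1% of all genes called, 39.3% higher and 39.8% lower) and 8 higher and 23 lower at day 6 (79.8% of all genes, 38.2% higher and 41.7% lower). Paclitaxel males had 7 higher and 21 lower at day 2 (79.9% of all genes, 39.3% higher and 40.6% lower) and 7 higher and 22 lower at day 6 (80.9%, 39.7% higher and 41.2% lower). In all 5 pairs Hoxa9, Hoxa11, Hoxa13, Hoxc10, Hoxc11, Hoxc12 and Hoxd13 were higher in paw and 18 members were lower. Another 8 members passed in some pairs in 1 direction, and Hoxa2 and Hoxa6 passed in none. The share of all genes passing in all 5 pairs was not computed. Since 79.1 to 81.1% of all genes passed in each pair, repeated calls are not read as a trait of the members. Over libraries of all groups, 6 members were higher in every paw library than in any DRG library and 16 were higher in every DRG library than in any paw library. Among 16641 genes with enough reads these shares were 21.8% and 29.2%. The pairs use separate libraries in each tissue but share the fit's estimate of spread.

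Within each library set, no member passed the test for change over days. In paw of paclitaxel females over days 2, 6, 16 and 26, 0 of 33 members were called, against 6.29% of all 15346 genes (4 members at an unadjusted p under 0.05, and 1 by DESeq2). In paw of paclitaxel males over days 2, 6 and 15, 0 of 33 members and 0% of all genes were called (0 members at an unadjusted p under 0.05, 0 by DESeq2). In DRG from day 2 to day 6, 0 of 32 members were called in females (0.18% of all 15577 genes, 4 members unadjusted, 0 by DESeq2) and 0 in males (0% of all genes, 0 unadjusted, 0 by DESeq2). A p that misses the threshold does not show equal levels. The standard errors of the day 6 minus day 2 differences in DRG had a median of 0.12 on the log2 scale. The paw test over days gives no standard error. Those of other paw differences, from vehicle females and of females minus males, had a median of 0.26 to 0.27.

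The spread of group means was described for members whose lowest group mean in that tissue and set was at least 1 CPM. In paw these were 28 members in paclitaxel females and 27 in the other set, and in DRG 29 and 30. Members with a group mean under 1 CPM are left out, so the largest ratios cover only the members kept. In paw the highest group mean was a median of 1.32 times the lowest in paclitaxel females (at most 2.62 times) and 1.32 times in the other set (at most 1.93 times). In DRG it was a median of 1.09 times in paclitaxel females (at most 1.43 times) and 1.15 times in the other set (at most 1.94 times). The tissues are not compared on these ratios, since they cover different numbers of groups. Hoxc11 had a group mean under 1 CPM in DRG of both sets and is not in the DRG figures. Its means there were 1.63 ± 1.07 and 0.507 ± 0.103 CPM in paclitaxel females at days 2 and 6 (SD, n = 3 each). Among the members kept in paw of paclitaxel females, the widest was Hoxa13. Its group means were 7.04 ± 2.49, 2.69 ± 2.02, 4.01 ± 2.52 and 4.75 ± 2.77 CPM at days 2, 6, 16 and 26 (SD, n = 3 each). Its libraries ran from 4.29 to 9.13 CPM at day 2 and from 0.840 to 4.84 CPM at day 6, so replicates of one day differed nearly as much as days. Hoxd13 group means were 11.2 ± 4.76, 6.10 ± 1.39, 9.44 ± 5.27 and 9.17 ± 4.19 CPM at those days. Hoxc11 was steadier, at 9.29 ± 0.98, 10.9 ± 2.79, 9.72 ± 0.97 and 11.5 ± 0.99 CPM.

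Within the set that holds both vehicle females and paclitaxel males, few members passed the test. This comparison also changes sex, the day after injection and the title mark (WT or LC). Treatment, sex, day and what the titles mark cannot be told apart in it. In paw, Hoxa5, which acts in lung and neck development, was lower in paclitaxel males at day 2, with 3.54, 4.08 and 5.17 CPM against 8.95, 8.24 and 7.12 CPM in vehicle females (-0.86 ± 0.18, adjusted p = 0.00868), and no library overlapped. It was the only one of 33 members called at day 2 (5.95% of all genes, 3.6% higher and 2.35% lower) and at day 6 (5.97% of all genes, 3.84% higher and 2.13% lower), where it had 4.49, 4.99 and 4.57 CPM (-0.73 ± 0.18, adjusted p = 0.0213). Fitting the compared groups alone called no member at either day, and leaving out a library gave 0 to 2 and 0 to 1 calls. At day 15 the only member called was Hoxa7 (4.41% of all genes, 2.11% higher and 2.29% lower), lower in males by -0.60 ± 0.15 (adjusted p = 0.0293), and with the replicate number as a block 2 members were called. In paw 6, 6 and 11 of the 33 members had an unadjusted p under 0.05 (edgeR) at days 2, 6 and 15. The summed HoxA level was 171 to 187 CPM in the vehicle paws and 131 to 157 CPM in the male paws. For HoxC these were 77.4 to 80.9 and 54.6 to 75.6 CPM, while the HoxB and HoxD sums overlapped. In DRG 0 of 32 members were called at day 2 (0.315% of all genes, 1 member unadjusted, 0 by DESeq2) and 0 at day 6 (1.79%, 6 unadjusted, 0 by DESeq2).

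Across the sets many more members passed, as did many more of all genes. Paclitaxel females against vehicle females gave 6 members higher and 7 lower of 32 in DRG at day 2 (49.8% of all genes called, 25.8% higher and 24% lower) and 4 higher and 7 lower at day 6 (41.5%, 23.2% higher and 18.3% lower). In paw, of 33 members, 1 was higher and 10 lower at day 2 (29% of all genes, 14.1% higher and 14.9% lower) and 2 higher and 3 lower at day 6 (29.5%, 16% higher and 13.5% lower). At day 16, 0 were higher and 7 lower (21.7%, 11.4% higher and 10.3% lower), and at day 26, 1 was higher and 2 lower (20.4%, 11% higher and 9.41% lower). The shares of members called, from 3 of 33 to 13 of 32, lay near or below those of all genes except at day 2 in paw. Treatment, library set and day after injection cannot be told apart in these 6 comparisons, which share the vehicle libraries.

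The female against male comparisons at matched days give values for the same members with other controls, although sex and set cannot be told apart there. Paclitaxel females minus paclitaxel males gave 7 members higher and 6 lower in DRG at day 2 (48.9% of all genes, 24.7% higher and 24.2% lower) and 4 higher and 9 lower at day 6 (39.9%, 21.7% higher and 18.2% lower). In paw they gave 0 higher and 6 lower at day 2 (31.2%, 15.5% higher and 15.7% lower) and 2 higher and 4 lower at day 6 (37.3%, 19.2% higher and 18% lower). Hoxb3 was lower in every one of the 4. Against paclitaxel males its log2 differences were -0.98 ± 0.08 and -0.94 ± 0.08 in DRG at days 2 and 6, and -1.05 ± 0.26 and -0.75 ± 0.26 in paw. The paw call of Hoxb3 at day 2 was lost when only the compared groups were fitted (edgeR, adjusted p = 0.0051 before and 0.0878 after). In DRG at day 2 the next smallest p-values were those of Hoxb4 (0.69 ± 0.11), Hoxc11 (1.70 ± 0.37), Hoxd9 (0.52 ± 0.12), Hoxd4 (0.40 ± 0.10), Hoxa9 (-0.27 ± 0.07), Hoxd8 (0.49 ± 0.13) and Hoxd3 (-0.37 ± 0.10). At day 6 they were those of Hoxc4 (-0.65 ± 0.10), Hoxb4 (0.65 ± 0.11), Hoxa9 (-0.42 ± 0.07), Hoxa3 (-0.87 ± 0.18), Hoxd3 (-0.48 ± 0.10), Hoxa11 (1.35 ± 0.35) and Hoxd1 (0.31 ± 0.09). Hoxb3, Hoxb4, Hoxa9 and Hoxd3 were among the 8 at both days.

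Hoxb3 was the member with the most even split between the sets. In DRG it had 15.1, 13.8 and 13.1 CPM in paclitaxel females at day 2 and 13.6, 15.3 and 12.9 CPM at day 6, against 29.0, 30.2 and 29.0 CPM in vehicle females. Paclitaxel males, in the same set as the vehicle females, had 27.0, 25.3 and 28.1 CPM at day 2 and 28.1, 27.7 and 24.1 CPM at day 6. The log2 difference of paclitaxel females from vehicle females was -1.06 ± 0.08 at day 2 (adjusted p = 2.23e-07) and -1.05 ± 0.08 at day 6 (adjusted p = 2.83e-07). Of the exon bases of Hoxb3, 70.5% (2250 bases) lie under exons of Hoxb3os, a transcript on the opposite strand that has no symbol of its own in the count files. Reads from a gene and its antisense partner can be told apart only when counting uses strand, and the setting used here is not given in the sources used here.

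Other members with opposite-strand partners were examined in the same way. Taking 1 transcript per member, GENCODE M21 places at least 50 exon bases under opposite-strand exons in 9 members. Among them were Hoxb3, Hoxb2 (58.5% of bases), Hoxa11 (35.0%), Hoxa7 (28.8%), Hoxa3 (25.5%), Hoxa4 (16.0%), Hoxd3 (11.7%) and Hoxb5 (5.3%). Over all its annotated exons Hoxd4 also has 347 bases under an opposite-strand gene. The transcript taken for Hoxd4 has 0, so Hoxd4 is among the others below. In DRG the median log2 difference of these 9 from vehicle females was -0.17 at day 2 and -0.29 at day 6 in paclitaxel females, against 0.19 and 0.01 for the 23 other members tested. In paw, where 8 of the 9 could be tested, it was -0.45, -0.31, -0.49 and -0.27 at days 2, 6, 16 and 26, against -0.25, -0.17, -0.22 and -0.10 for the 25 others tested. The part of strand or antisense reads in these differences was not tested.

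**Figure D4:**
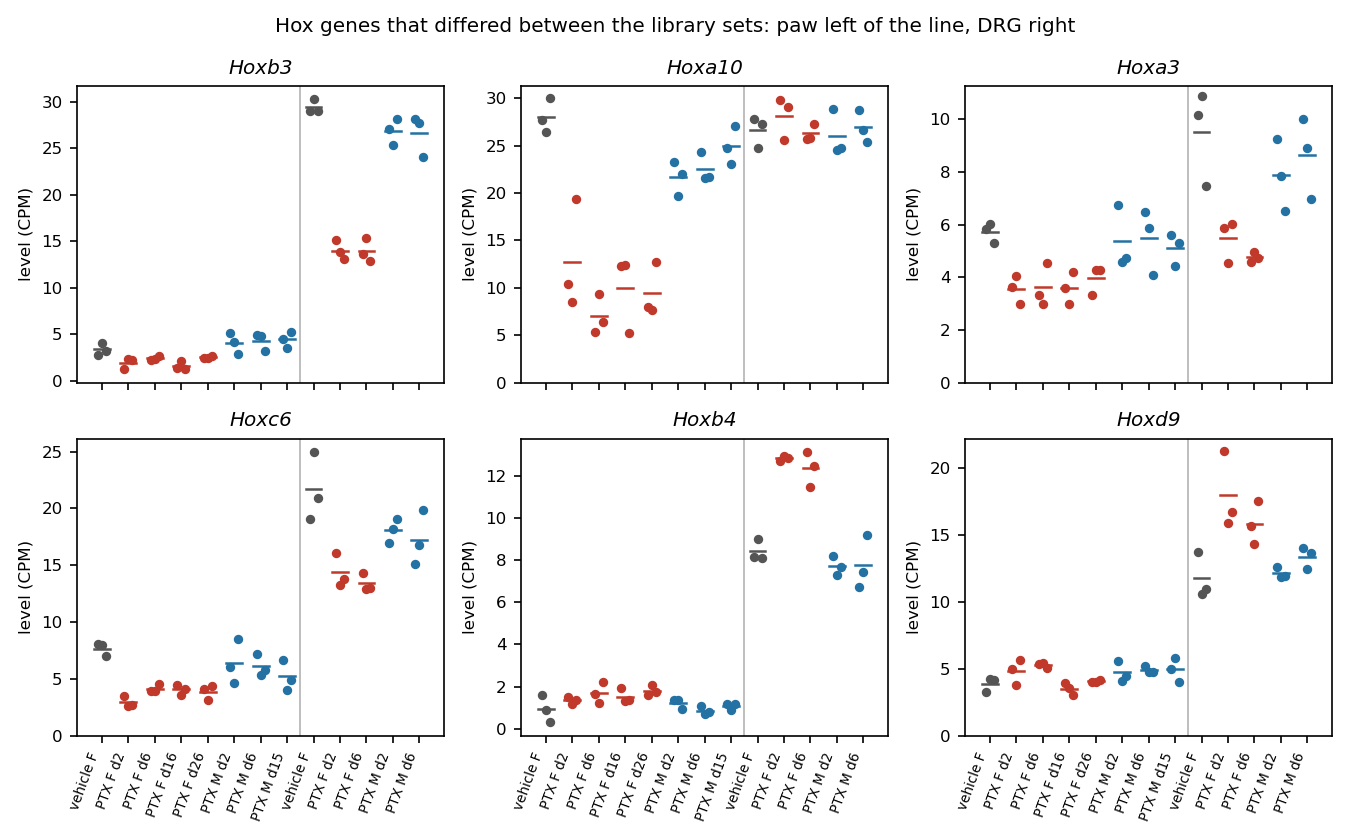
CPM of 6 members in every library, paw left of DRG, with vehicle females in grey, paclitaxel females in red, paclitaxel males in blue and bars at group means (n = 3 libraries each). Hoxb3 in DRG lies at 12.9 to 15.3 CPM in paclitaxel females and at 24.1 to 30.2 CPM in all other libraries, and Hoxa10 parts the sets in paw but not in DRG.

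Several members without such partners also differed between the sets. Hoxb4 was higher in DRG of paclitaxel females than of vehicle females, at group means of 12.8 ± 0.14 and 12.4 ± 0.83 CPM at days 2 and 6, against 8.43 ± 0.52 CPM in vehicle females (0.61 ± 0.11 and 0.58 ± 0.11, adjusted p = 0.000339 and 0.000614). Hoxd9 rose likewise, by 0.61 ± 0.12 and 0.46 ± 0.12 (adjusted p = 0.000759 and 0.00721). Hoxc6 was lower in both tissues: in DRG by -0.59 ± 0.12 and -0.66 ± 0.12 at days 2 and 6, and in paw by -1.30 ± 0.21, -0.75 ± 0.20, -0.81 ± 0.20 and -0.90 ± 0.20 at days 2, 6, 16 and 26. In paw it had 3.48, 2.64 and 2.69 CPM at day 2, against 8.04, 8.00 and 6.97 CPM in vehicle females, and all 12 paclitaxel female libraries lay below all 3 vehicle libraries. Hoxc4 was lower in DRG by -0.50 ± 0.10 and -0.73 ± 0.10, and Hoxd1 higher by 0.33 ± 0.09 and 0.49 ± 0.09. Of the members with opposite-strand partners, Hoxa3 was lower in DRG by -0.79 ± 0.18 and -0.97 ± 0.18, and Hoxd3 by -0.39 ± 0.10 and -0.53 ± 0.10.

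In paw the larger differences from vehicle females were spread over the clusters. At day 2 Hoxa9 was lower by -0.73 ± 0.15, Hoxa7 by -0.63 ± 0.15, Hoxa2 by -1.07 ± 0.32, Hoxa5 by -0.59 ± 0.18 and Hoxc8 by -0.78 ± 0.25, while Hoxa11 was higher by 1.26 ± 0.33 (adjusted p from 0.00173 for Hoxa9 to 0.0249 for Hoxc8). At day 16 Hoxa2, Hoxa7, Hoxa9, Hoxb3 and Hoxc4 were lower by -1.37 ± 0.32, -0.59 ± 0.15, -0.73 ± 0.15, -1.03 ± 0.27 and -1.10 ± 0.27. Hoxc12 was higher at days 6 and 26, by 0.84 ± 0.25 and 0.75 ± 0.25 (adjusted p = 0.0162 and 0.0405). The day 26 call of Hoxc12 held in 0 of 6 fits without 1 library (edgeR, adjusted p up to 0.149) and was lost with the replicate block (adjusted p = 0.0508). At day 6 Hoxd9 was higher by 0.57 ± 0.17 and Hoxa9 lower by -0.45 ± 0.15. Of 6 fits without 1 library against vehicle females, Hoxa2 passed in 3, Hoxa5 in 2 and Hoxc8 in 2 at day 2. Hoxa7 and Hoxa9 passed in all 6 at that day and Hoxa11 in 5. At day 6 Hoxd9 passed in 5, Hoxc12 in 4 and Hoxa9 in 1. Fitting only the compared groups ended the day 2 calls of Hoxa2 and Hoxa5 (edgeR, adjusted p = 0.0587 and 0.0593). It also ended the day 6 calls of Hoxc12 and Hoxd9 (adjusted p = 0.0693 and 0.0547) and the day 16 call of Hoxb3 (adjusted p = 0.0541). Against paclitaxel males, Hoxa3, Hoxc4, Hoxc5 and Hoxc6 were lower at day 2 by -0.56 ± 0.21, -0.72 ± 0.27, -0.78 ± 0.27 and -1.10 ± 0.21. At day 6 Hoxb4 and Hoxc12 were higher by 1.06 ± 0.37 and 1.03 ± 0.25, and Hoxd3 and Hoxd11 lower by -1.38 ± 0.51 and -1.91 ± 0.71. Several of these calls were fragile. With the replicate block Hoxa3, Hoxc4 and Hoxa10 lost theirs at day 2 (edgeR, adjusted p = 0.0589, 0.0555 and 0.0529). Of 6 fits without 1 library, Hoxa3 passed in 3, Hoxc4 in 1, Hoxc5 in 2 and Hoxa10 in 1 at day 2, and Hoxb4 in 2, Hoxd3 in 1 and Hoxd11 in 0 at day 6, while Hoxc6 at day 2 and Hoxc12 at day 6 passed in all 6.

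Hoxa10, a gene of the thigh and the lumbar spine, had a difference between sets in paw that was not seen in DRG. In paw it had 10.4, 8.54 and 19.4 CPM at day 2, 5.31, 9.39 and 6.38 CPM at day 6, 12.3, 12.4 and 5.28 CPM at day 16 and 8.02, 7.64 and 12.8 CPM at day 26 in paclitaxel females, against 27.7, 26.4 and 30.04 CPM in vehicle females. Paclitaxel males had 19.7 to 27.1 CPM in paw, above every paclitaxel female library. In DRG all 15 libraries lay between 24.5 and 29.9 CPM. The log2 difference from vehicle females in paw was -1.05 ± 0.28, -1.86 ± 0.29, -1.40 ± 0.29 and -1.47 ± 0.29 at days 2, 6, 16 and 26 (adjusted p = 0.00869, 8.6e-05, 0.00154 and 0.00108), and in DRG 0.09 ± 0.08 and 0.01 ± 0.08 at days 2 and 6. With the muscle marker level as a covariate the paw differences were -1.36, -1.76, -1.60 and -1.63. Fitting the 2 groups alone ended the call at day 2 (adjusted p = 0.0548).

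The test of the difference between tissues gave the same member. The paw minus DRG difference of Hoxa10 was -1.06 ± 0.23 and -1.80 ± 0.24 in paclitaxel females at days 2 and 6, and -0.25 ± 0.23 at both days in paclitaxel males. Females minus males, this difference was -1.54 ± 0.33 at day 6 (adjusted p = 0.00515), the only member called there (4.67% of all genes, 1.91% higher and 2.76% lower), and leaving out any of the 12 libraries kept the call (-1.80 to -1.38). At day 2 the members called were Hoxc11 at -1.86 ± 0.37 (adjusted p = 0.00271) and Hoxd4 at -0.87 ± 0.26 (adjusted p = 0.0478), with 4.27% of all genes, 1.83% higher and 2.44% lower. Between days 6 and 2, females gave 1 member, Hoxc11 at 1.91 ± 0.37 (adjusted p = 0.0138, 2.06% of all genes, 0.544% higher and 1.52% lower), and males gave 0 (0% of all genes, 0 unadjusted, 0 by DESeq2).

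Hoxc11 in DRG was highest in a single library, and 1 of its calls depended on it. It had 2.85, 0.926 and 1.10 CPM in paclitaxel females at day 2, against 0.278, 0.258 and 0.283 CPM in vehicle females (2.56 ± 0.40, adjusted p = 0.000129), and 0.393, 0.535 and 0.594 CPM at day 6. The highest value was replicate 1, with 65 reads. Without it the difference from vehicle was 1.88 (adjusted p = 0.000205), the tissue difference between days was 1.26 (adjusted p = 0.0827), and the tissue difference of females minus males at day 2 was -1.16 (adjusted p = 0.034). Only the tissue difference between days lost its call without replicate 1. Fitting only the compared groups ended the calls of both tissue differences (adjusted p = 0.228 between days and 0.125 for females minus males). Keratinocyte marker levels were also higher in DRG of paclitaxel females, at 2.79 to 3.25 on the log2(CPM + 0.5) scale, than in all other DRG libraries, at 1.15 to 1.69, and the part of skin RNA in the Hoxc11 reads was not tested. Hoxa13 and Hoxd13, the distal genes of skin, had at most 1 and 2 reads in those libraries.

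The DRG library with spinal cord markers stood apart in Hoxb8, Hoxb13 and Hoxc12, which are named here after their values were seen. Replicate 2 of paclitaxel females at day 2 had a spinal cord list level of 2.51 on the log2(CPM + 0.5) scale, against 1.12 to 1.57 in the other 14 DRG libraries. It had 37.1 CPM of Hoxb8, against 18.4 and 21.4 CPM in the other 2 libraries of its group, and held 27 reads of Hoxb13 and 16 of Hoxc12. It was the lowest of its group for other posterior genes, Hoxa9, Hoxa10, Hoxa11, Hoxc10, Hoxc11, Hoxd9 and Hoxd11. The difference of Hoxb8 from vehicle females at day 2 was 0.61 ± 0.20 (adjusted p = 0.0189) with it and 0.25 (adjusted p = 0.11) without it. Without it Hoxa9 also lost its call against vehicle females (-0.22 with it, -0.18 without it, adjusted p = 0.0193 and 0.0888). That call was not tied to this library alone. It was also lost without replicate 1 (-0.19, adjusted p = 0.0858) and passed in 3 of 6 fits without 1 library (edgeR). Against paclitaxel males at day 2, Hoxa3, Hoxb8, Hoxc4 and Hoxc6 passed with it and not without it (adjusted p = 0.0832, 0.304, 0.0921 and 0.079 without it).

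Distal HoxA genes went with muscle RNA in the paw biopsies. Over the 12 paclitaxel female paw libraries Hoxa13 and the muscle marker level had a Pearson's r of 0.90 and a Spearman's rho of 0.97 (permutation test, adjusted p = 0.00976 and 0.00186 over 186 relations), and r was 0.92 without the 2 libraries farthest from the median muscle level. Over the 12 libraries of vehicle females and paclitaxel males r was 0.87 and rho 0.81 (permutation test, adjusted p = 0.00976 and 0.0338), with r of 0.59 without the 2 farthest, so that set leans on them. Hoxa11 had r of 0.84 and rho of 0.94 in the paclitaxel females (permutation test, adjusted p = 0.0152 and 0.00186), and r of 0.75 and rho of 0.61 in the other set, which did not pass (permutation test, adjusted p = 0.0697 and 0.183). Hoxa10 had r of 0.89 and rho of 0.95 in paclitaxel females (permutation test, adjusted p = 0.00372 and 0.00186) and r of 0.21 in the other set (permutation test, adjusted p = 0.68). The same genes went with less keratinocyte RNA. In paclitaxel females r with the keratinocyte marker level was -0.76 for Hoxa10, -0.76 for Hoxa11 and -0.81 for Hoxa13, and rho -0.81, -0.87 and -0.87 (permutation test, adjusted p of r = 0.0433, 0.0433 and 0.0235, of rho = 0.0352, 0.0174 and 0.0174). In the other set Hoxa13 had r of -0.81 and rho of -0.87 (permutation test, adjusted p = 0.0235 and 0.0174), and Hoxa10 and Hoxa11 did not pass. The muscle relation of Hoxc12 did not pass, with r of -0.72 and -0.01 (permutation test, adjusted p = 0.0653 and 0.988). Of 31 members, r with muscle markers passed in 3 in paclitaxel females and 1 in the other set, all positive. With keratinocyte markers 3 were positive and 3 negative in paclitaxel females, and 0 and 2 in the other set. With fibroblast markers 1 was positive and 1 negative in paclitaxel females, and 1 and 5 in the other set. Relations of all genes were not computed, so these are not read as particular to Hox genes. The libraries span several days and treatments, and the part of biopsy depth in these relations was not tested.

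**Figure D5:**
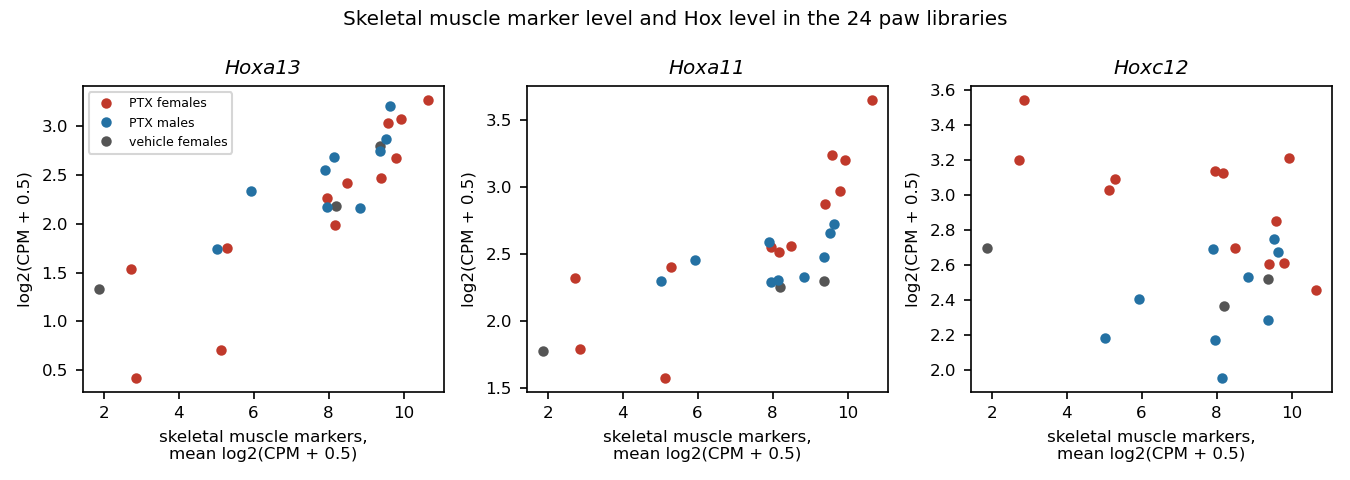
Level of Hoxa13, Hoxa11 and Hoxc12 against the mean level of 20 skeletal muscle markers in the 24 paw libraries, both as log2(CPM + 0.5), each point a library coloured by group. Hoxa13 climbs with the muscle markers (r of 0.90 in paclitaxel females and 0.87 in the other libraries) while Hoxc12 does not.

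The partners and regulators of Hox proteins were counted from gene lists. Of 9 genes of the TALE family, the Pbx, Meis and Pknox proteins that bind DNA together with Hox proteins, 2 were higher and 6 lower in paw of vehicle females (median log2 difference -0.60, against 0 over all genes). For this and the next lists, 81.1% of all genes were called in the same comparison, 40% higher and 41% lower. Meis2 had 2.38 to 7.25 CPM in paw and 23.8 to 43.3 CPM in DRG (-2.75 ± 0.12, adjusted p = 4.09e-19), and Meis3 and Pbx4 were lower by -3.34 ± 0.23 and -2.92 ± 0.30. Meis1 went the other way, with 13.3 to 36.8 CPM in paw and 4.83 to 7.65 CPM in DRG (2.26 ± 0.23, adjusted p = 3.09e-10). Of 23 Polycomb and Trithorax genes, which hold Hox clusters silent or active, 13 were higher and 5 lower in paw, among them Ezh2, the Polycomb methyltransferase, at 2.53 ± 0.18, Jarid2 and Kdm6a at 1.54 ± 0.10 and 1.31 ± 0.09, and Phc2 at -0.81 ± 0.06. Of 8 tested Cdx, Gdf11 and retinoid genes, 4 were higher and 3 lower. Cyp26b1, which breaks down retinoic acid in distal limb and skin, was higher in paw by 2.81 ± 0.13 and Gdf11, the signal that switches on posterior Hox genes in the trunk, lower by -4.55 ± 0.41.

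Other transcription factors of limb position were also high in paw. Of 26 tested, 21 were higher and 2 lower in paw of vehicle females, with a median log2 difference of 3.18, against 0 over all genes, of which 40% were higher and 41% lower. En1, which marks the ventral side of the limb and the footpad skin, had 27.0 to 57.2 CPM in paw and 0 to 0.473 CPM in DRG. Irx3 had 51.8 to 104 CPM in paw and 1.88 to 3.31 CPM in DRG (4.65 ± 0.21), and Irx5 and Dlx5 were at 21.6 to 40.5 and 14.1 to 42.9 CPM in paw and at most 0.312 and 0.425 CPM in DRG. The ranges of these 4 genes did not overlap between tissues.

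The noncoding RNAs of the clusters could be followed only in part, since 12 of the 28 written in the list had a symbol in the count files and 6 could be tested. In vehicle females 2 were higher and 1 lower in paw. Hoxa11as, transcribed against Hoxa11, had 1.97 to 12.6 CPM in paw and 0.128 to 0.959 CPM in DRG (2.97 ± 0.51, adjusted p = 5.53e-06), a split like that of Hoxa11, whose exons it partly overlaps. Mir196b, read as its host transcript in poly(A) RNA and not as mature miRNA, had at most 13 reads in any library. Mir196b also has 85 exon bases in common with Hoxa9 on the same strand, so its reads cannot be cleanly parted from those of Hoxa9. The cluster miRNAs shown here fall into 2 seed families. They are shown because their hairpins lie within the Hox clusters and because miR-196 is known to repress Hoxb8. Capitals mark the seed, bases 2 to 8, and the sequences are from RefSeq.
miR-196a-5p: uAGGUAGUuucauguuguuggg
miR-196b-5p: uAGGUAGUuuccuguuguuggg
miR-10a-5p: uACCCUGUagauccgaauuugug
miR-10b-5p: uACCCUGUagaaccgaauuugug
Mature miRNA levels were not measured in these libraries.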

How the data were processed

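RNA was sequenced as 50-base single-end reads from poly(A) RNA, per the labels' protocols, and the deposited values are raw read counts per gene symbol. Per the submitters' processing notes the authors used bcl2fastq, TopHat2, HTSeq and the mm9 genome; versions, the annotation and the strand setting are not given in the sources used here. The 5 summary lines of each file, which hold 41.9 to 58.6% of all lines' reads, were left out of library sizes. Members and gene lists were chosen with earlier results of these data known, and some items are not reported here.

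Counts were tested with edgeR 4.0.16 (R 4.3.3; TMM, filterByExpr, quasi-likelihood F test, Benjamini-Hochberg over all genes tested). The 39 libraries were fitted together for paw minus DRG and its interactions, and the 24 paw and 15 DRG libraries separately for comparisons within a tissue. SE is the log2 difference divided by the square root of F. CPM divides by reads counted to genes, with a pseudocount of 0.5 for log2 levels. Relations with marker levels used 100000 permutations. Members with a mean of at least 1 CPM in a tissue are named, apart from those items. Within a tissue all called members are named, or the 8 with the smallest p, and others are named where a single library touched them. At most 4 genes of a list are named, by p. Alternatives were DESeq2 1.42.0, RLE size factors, no low-count filter, only the compared groups, muscle level as a covariate, the replicate number as a block and leaving out each library. Overlaps and homeobox stretches are from GENCODE M21 on GRCm38, which is not the build of the counts.

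Replicate numbers come from the labels, which do not say what they pair. Same-numbered libraries deviated together (every correlation over 0.1) in paw minus DRG of paclitaxel females at day 6 (0.27 to 0.55), DRG of males between days (0.19 to 0.35), paw of females at day 2 (0.18 to 0.65) and of males at days 6 and 15 (0.27 to 0.69 and 0.23 to 0.61) against vehicle, and DRG of males at day 6 against vehicle (0.15 to 0.18), and not in the other comparisons. No library was a copy of another.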

Additional observations from a re-analysis of the deposited data

Results flagged for a closer look

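The difference between tissues itself differed between groups for 3 members. Hoxc11 changed by 1.91 on the log2 scale between days 6 and 2 in paclitaxel females, and by -1.86 in females minus males at day 2. Both values rest in part on DRG replicate 1 of paclitaxel females at day 2. Hoxd4 differed by -0.87 in females minus males at day 2. Its call held in 2 of 12 fits without 1 library and was lost with the replicate block (adjusted p = 0.101, edgeR). Hoxa10 differed by -1.54 in females minus males at day 6. In females against males, the sexes also come from different library sets, and these cannot be told apart.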

How the results depend on the processing

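No result turned its direction under any alternative run. Of the members called in paw minus DRG, 27 of 31 in vehicle females, 30 of 31 and 28 of 31 in paclitaxel females at days 2 and 6, and 26 of 28 and 27 of 29 in males at days 2 and 6 passed in every setting. Within tissues fewer did: against vehicle 3 of 11, 2 of 5, 6 of 7 and 2 of 3 in paw of females at days 2, 6, 16 and 26, 0 of 1 in paw of males at each day, and 10 of 13 and 7 of 11 in DRG of females at days 2 and 6. For females minus males these were 1 of 6 and 2 of 6 in paw and 9 of 13 and 7 of 13 in DRG at days 2 and 6. Of the tissue differences, 0 of 1 (females between days), 0 of 2 and 1 of 1 (females minus males, days 2 and 6) did. All 70 levels moved by less than 1 SD under TMM scaling. Counts of members called that moved by over 1.5 times were as follows, and the cause was not tested unless fewer libraries entered the fit. With RLE size factors or no low-count filter, the tissue difference of females minus males at day 2 had 1 call, and without the filter paw females minus males at day 2 had 2. DESeq2 called 2 in the tissue difference of females between days, 1 over the female paw days, 5 in paw of females at day 26, and 3 and 2 in paw of males at days 2 and 15, each of the last 3 against vehicle. With the replicate block, the tissue differences had 0 calls (females between days) and 1 (females minus males, day 2), and paw of males at day 15 had 2; the block moved no other count by that much. The muscle covariate gave 8 and 6 calls in paw of females at days 6 and 26. Fitting only the compared groups gave 0 for both of those tissue differences, 6 and 5 for paw of females at days 2 and 26, 0, 0 and 2 for paw of males at days 2, 6 and 15, 1 for DRG of males at day 6, and 1 for paw females minus males at day 2.

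Leaving out 1 library gave 8 to 10 members higher and 20 to 22 lower in vehicle females for paw minus DRG, 7 to 7 and 23 to 24, and 7 to 9 and 21 to 24, in paclitaxel females at days 2 and 6, and 7 to 7 and 19 to 21, and 6 to 7 and 21 to 22, in males at days 2 and 6. Against vehicle it gave 4 to 12, 3 to 9, 6 to 10 and 2 to 4 in paw of females at days 2, 6, 16 and 26, 0 to 2, 0 to 1 and 0 to 1 in paw of males, 11 to 13 and 7 to 11 in DRG of females, and 0 to 0 in DRG of males at both days. Females minus males gave 3 to 5 and 2 to 6 in paw and 10 to 13 and 8 to 13 in DRG at days 2 and 6. The tissue differences gave 0 to 4 and 0 to 0 between days in females and males, and 1 to 3 and 1 to 2 for females minus males at days 2 and 6. Courses over days gave 0 to 2 and 0 to 0 in paw and 0 to 1 and 0 to 0 in DRG of females and males. Single libraries moved counts by over 1.5 times as follows. Against vehicle, paw of paclitaxel females at day 2 had 7, 4 or 5 calls without its replicate 1 or 3 or vehicle replicate 2, and at day 6 had 9 or 3 without its replicate 3 or vehicle replicate 3. Paw of males at day 2 had 0, 2 or 2 without its replicate 1 or 3 or vehicle replicate 3, at day 6 had 0 without any of its own libraries or vehicle replicate 1 or 2, and at day 15 had 0 without its replicate 1 or 3 or vehicle replicate 1 or 2. DRG of females at day 6 had 7 without vehicle replicate 2. In females minus males, paw had 3 without female replicate 1 or male replicate 3 at day 2, and 2 without female replicate 1 or male replicate 2 at day 6, and DRG had 8 without female replicate 3 at day 6. The tissue difference of females minus males had 1 at day 2 without any DRG male library, paw male replicate 1 or 3, DRG female replicate 1 or 2 or paw female replicate 1, and 2 at day 6 without paw female replicate 2. That of females between days had 0 without DRG replicate 1 of day 2, DRG replicate 1 or 2 of day 6 or paw replicate 3 of day 6, 4 without paw replicate 2 of day 2 and 3 without paw replicate 2 of day 6. DRG of females between days had 1 without replicate 2 or 3 of day 2 or replicate 3 of day 6, and paw over the female days had 2 without replicate 2 of day 2.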
